A study of Mus musculus with 2 samples.

Results

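TCF12, or HEB, belongs to the E proteins, basic helix-loop-helix factors that bind DNA as dimers at E-boxes, short sites of the form CANNTG. The sites described here are its distal peaks whose summit held the E-box with a GC centre, CAGCTG, and no E-box with a CC or GG centre (CACCTG, read as CAGGTG on the other strand). They were chosen from the peak list on the mm9 build by sequence and position alone. The summit lay more than 1 kb from the 5′ end of every protein-coding gene and outside protein-coding exons. CAGCTG lay wholly within 50 bp of the summit. For each gene 1 annotated 5′ end was used, so starts of its other transcripts can lie closer. Of 23572 peaks on chromosomes 1 to 19 and X, 14349 were distal, and 2090 of these met the rule (14.6% of distal peaks, 95% Wilson interval 14.0% to 15.2%). They are called GC-only peaks below. The other distal classes were 2891 CC-only peaks, which held CACCTG or its complement but no CAGCTG, 749 peaks with both kinds and 8619 peaks with neither kind.

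Chromatin immunoprecipitation and sequencing for TCF12 was done in CH12.LX, an immortalised mouse B-cell lymphoma line of strain B10.H-2aH-4bp/Wts. There was 1 group of 2 biological replicates with no treatment, and both replicates share 1 donor, so the values describe 1 line. The mm9 list joins both replicates, so a peak has 1 value and no replicate spread. Intervals below cover counting error over peaks taken as independent, and read depth is unknown. The signal of a peak is the value deposited by the authors' caller, with no stated scaling, and serves only to rank peaks within this list.

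E proteins set the early steps of B-cell and T-cell development. They act as homodimers or with partners such as MyoD in muscle, and the ID proteins, which lack the basic DNA-binding region, hold them off DNA. CAGCTG is a palindrome, so both half-sites of the dimer read the same letters, whereas in CACCTG the half-sites differ. The bases directly beside the 6 letters and nearby sites of other factors can vary from peak to peak, and these were described first.

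The windows below show what such summits look like, on the plus strand of mm9 and 5′ to 3′, with CAGCTG in capitals. The first 5 are among the 12 strongest GC-only peaks, the next 3 lie at genes with known roles in B cells, and the last 2 show a RUNX site run into CAGCTG and a tandem repeat. They were picked from the named regions after their values were seen. Each window spans the 50 bases on either side of the summit.
intron of Gas7, chr11:67402542-67402642: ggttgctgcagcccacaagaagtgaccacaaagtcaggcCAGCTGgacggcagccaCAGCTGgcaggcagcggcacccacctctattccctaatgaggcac
between genes, nearest gene 5031425E22Rik, chr5:22892895-22892995: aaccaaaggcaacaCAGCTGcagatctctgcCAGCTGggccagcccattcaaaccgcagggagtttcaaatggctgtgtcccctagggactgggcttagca
intron of Gnaq, chr19:16326482-16326582: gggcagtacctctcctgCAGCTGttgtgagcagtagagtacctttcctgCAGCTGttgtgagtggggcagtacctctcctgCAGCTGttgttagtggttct
intron of Ninj2, chr6:120105059-120105159: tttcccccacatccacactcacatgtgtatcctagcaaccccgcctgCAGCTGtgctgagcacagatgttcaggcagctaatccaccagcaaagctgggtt
between genes, nearest gene Id2, chr12:25893908-25894008: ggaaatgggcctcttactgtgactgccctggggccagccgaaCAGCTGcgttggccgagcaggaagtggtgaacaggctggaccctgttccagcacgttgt
intron of Pold1, nearest gene Spib, chr7:51788461-51788561: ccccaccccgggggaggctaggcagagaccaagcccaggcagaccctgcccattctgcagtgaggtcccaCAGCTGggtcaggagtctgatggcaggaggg
intron of Pax5, chr4:44718979-44719079: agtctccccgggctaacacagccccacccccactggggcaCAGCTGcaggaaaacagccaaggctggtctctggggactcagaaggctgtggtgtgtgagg
intron of 2310045N01Rik, nearest gene Mef2b, chr8:72674222-72674322: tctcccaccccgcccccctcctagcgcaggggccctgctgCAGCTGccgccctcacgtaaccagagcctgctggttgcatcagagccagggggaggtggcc
between genes, nearest gene Atp13a2, chr4:140539507-140539607: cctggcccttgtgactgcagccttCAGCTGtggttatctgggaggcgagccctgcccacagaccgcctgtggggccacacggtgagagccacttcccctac
intron of Sv2b, chr7:82286837-82286937: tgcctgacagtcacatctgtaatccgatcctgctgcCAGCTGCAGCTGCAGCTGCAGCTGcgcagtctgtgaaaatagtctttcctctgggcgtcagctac

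The strongest GC-only peak reached a signal of 1296 and ranked 3 among all distal peaks. It lay in an intron of Gas7, 106 kb upstream of the 5′ end of Rcvrn, and its window held 2 copies of CAGCTG with none of the other motifs searched. A peak 75.7 kb downstream of the 5′ end of Cryaa on chromosome 17 followed with 884. The peak 46.8 kb downstream of the 5′ end of 5031425E22Rik had 784, with 2 copies of CAGCTG and an EBF motif. Signals of 764 and 718 belonged to peaks between genes. The first lay 36.3 kb upstream of the 5′ end of Cecr5, and the second 299.9 kb downstream of that of Tns1, which encodes a focal adhesion protein. A signal of 669 belonged to a peak within Gnaq, which encodes a G protein alpha subunit. The Gnaq window, shown above, held 3 copies of CAGCTG, each with the same 8 letters (ACAGCTGC or its complement). The remaining 6 of the 12 strongest are named by the gene with the nearest 5′ end and the distance to it. Their signals were 644 (Ninj2, 61.7 kb), 639 (Gm10293, 168.7 kb), 630 (Ivns1abp, 93.5 kb), 625 (Nipal4, 38.7 kb, in an intron of Adam19), 595 (Tomm20, 106.7 kb) and 589 (Id2, 113 kb). Which gene a peak acts on was not tested. The Id2 peak lay 113 kb upstream of the gene for an ID protein that blocks E proteins, on chromosome 12, and held ACAGCTGC 5.5 bp from its summit. Each of the 12 ranked within the strongest 48 distal peaks.

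GC-only peaks were less often strong than peaks with both kinds and more often strong than peaks with neither, and differed from CC-only peaks by less than the counting error. The median signal was 55.5 in GC-only peaks (95% interval 53.8 to 57.2), against 56.4 in CC-only peaks (54.8 to 58.1), 68.2 in peaks with both kinds (64.4 to 72.2) and 48.2 in peaks with neither (47.6 to 49.0). The middle 50% of GC-only peaks ran between 39.6 and 96.6, and the lowest value was 30.03. The lowest value over all peaks used was 30.02, so weaker peaks are absent from every class and the medians are of the listed peaks only. Among the strongest 20% of distal peaks, those with a signal of at least 96.4, were 524 GC-only peaks (25.1%), against 26.4% of CC-only peaks, 36.4% of peaks with both kinds and 15.2% of peaks with neither. The difference from CC-only peaks was -1.29 points (95% Newcombe interval -3.73 to 1.18), which was not called. The difference from peaks with both kinds was -11.4 points (-15.3 to -7.51), and that from peaks with neither was 9.86 points (7.89 to 11.9). Both were called, meaning that the interval left out 0 after it was widened for 3 comparisons.

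**Figure D1:**
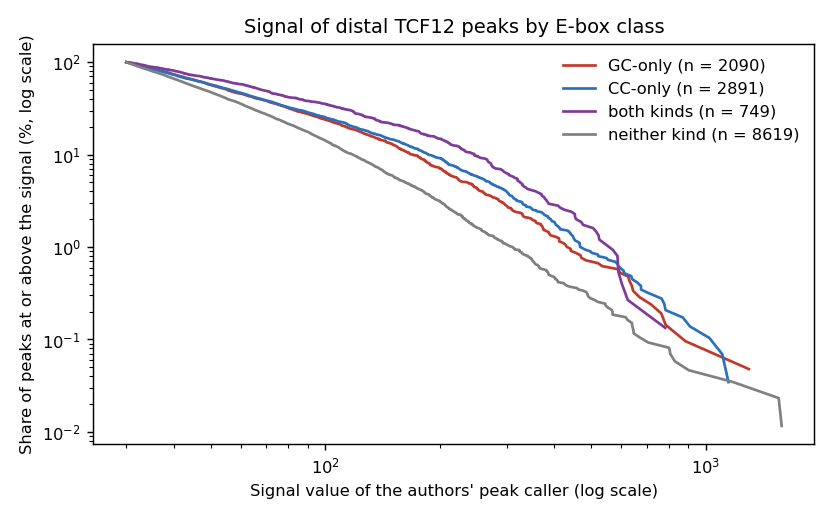
Share of distal TCF12 peaks (y axis, percent, log scale) with at least the signal on the x axis (units of the authors' caller, log scale), 1 line for each E-box class. GC-only peaks run close to CC-only peaks, with medians of 55.5 and 56.4, and lie between peaks with both kinds (68.2) and with neither (48.2).

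The width of a peak changed with its signal. The most common width among GC-only peaks was 370 bp. Of GC-only peaks, 1546 (74.0%) had this width, with the summit in the middle, and their median signal was 46.02. The other 544 had a median of 149.9. The nearest CAGCTG centre lay 10 bp or less from the summit in 27.2% of peaks of other widths and 27.9% of those of 370 bp, a difference of -0.74 points (-4.98 to 3.72) that was not called. The 370 bp width was taken by 72.2% of CC-only peaks, 59.9% of peaks with both kinds and 85.7% of peaks with neither.

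The letters directly beside CAGCTG differed between the summits and their surroundings. The 2440 CAGCTG sites in GC-only summit windows were set against 1569 CAGCTG sites in flank windows of all distal peaks, which have the same width and are centred 300 bp to either side. Both neighbouring bases were read, and a site and its complement count as the same kind, which gives 10 kinds. ACAGCTGC made up 21.6% of summit sites, against 11.03% of flank sites, a difference of 10.6 points (8.29 to 12.8). GCAGCTGC made up 10.8% of summit sites, against 7.84% of flank sites (2.94 points, 1.09 to 4.72). Its call was lost in the 25 bp window (3.63 points) and in the upper 50% of signal (3.37 points), and against CAGCTG sites at promoter summits in place of flanks it turned to -8.57 points. These 2 of 10 kinds were higher (20%). The 4 kinds that were lower (40%) all carry a T directly before CAGCTG, written as the A after it when the other strand is read. CCAGCTGA took 5.37% of summit sites, against 11.3% of flank sites. GCAGCTGA took 6.76% of summit sites, against 10.4% of flank sites. ACAGCTGA took 6.72% of summit sites, against 10.1% of flank sites, and its call too was lost in the 25 bp window (-2.78 points) and in the upper 50% of signal (-2.99 points) and turned to 3.93 points against promoter summits. CCAGCTGA and GCAGCTGA were not called against promoter summits (-1.44 and -0.51 points). TCAGCTGA, with a T before the site on either strand, was the rarest, with 1.68% of summit sites, against 4.46% of flank sites. The other 4 kinds, ACAGCTGG, ACAGCTGT, CCAGCTGC and CCAGCTGG, were not called, with differences between -0.53 and 1.40 points.

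Counted by single bases, T preceded CAGCTG at 11.1% of summit site ends, against 20.4% of flank site ends, while G did so at 32.7% of summit site ends, against 26.6% of flank site ends. A preceded it at 30.6% of summit site ends, against 25.2% of flank site ends. At the next base outward, T stood at 22.2% of summit site ends, against 23.5% of flank site ends. Further out, T was also lower at the summits at each base read, up to base 6. At base 3 it stood at 20.3% of summit site ends, against 24.7% of flank site ends. At base 5 the shares were 20.5% and 23.9%. The lower share of T was therefore not confined to the base directly beside CAGCTG. These single-base shares are descriptions with no test. The peaks near Id2 and in Pax5 and Ninj2, shown above, carry ACAGCTGC, and the peak nearest Mef2b carries GCAGCTGC.

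Within GC-only peaks, those with more than 1 CAGCTG and those with GCAGCTGC were more often strong. Of the 12 groups compared, 2 were called (16.7%), each by the share of its peaks among the strongest 20% of GC-only peaks, with a signal of at least 113. Of the 279 peaks with 2 or more copies, 29.0% were that strong, against 18.6% of the 1811 peaks with 1 copy (10.4 points, 5.08 to 16.3). The median signal was 66.4 with 2 or more copies and 54.6 with 1 copy. Of the 255 peaks with GCAGCTGC, 28.6% were that strong, against 18.8% of the rest (9.83 points, 4.31 to 15.9). Peaks with 1 copy were also compared among themselves, where strong meant the strongest 20% of 1-copy peaks, a lower signal limit than 113. There the GCAGCTGC difference was 5.99 points (0.073 to 12.8), which was not called. Among these 1-copy peaks ACAGCTGA was the kind that was called. By that lower limit 9.38% of the 128 peaks that hold it were strong, against 20.9% of the rest (-11.5 points, -15.9 to -4.91). Over peaks of any copy number, at the limit of 113, the ACAGCTGA difference was -8.80 points (-13.3 to -2.62), which was not called. Both calls above were lost with a 25 bp window (9.56 points for 2 or more copies and 6.001 points for GCAGCTGC). The copy call was also lost when peaks with another summit within 1 kb were left out (7.41 points), and that for GCAGCTGC when the upper 50% was taken as strong (6.92 points). Of the 580 peaks with CAGCTG centred within 10 bp of the summit 19.7% were that strong, against 20.1% of the others (-0.48 points, -4.16 to 3.47, not called). The 41 peaks with TCAGCTGA had a median of 44.5, against 55.6 for the rest, and 3 of them were strong (-12.9 points, -18.1 to -0.71, not called after widening).

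By copy number, the median signal was 54.6 in 1811 peaks with 1 copy (52.6 to 56.2), 65.6 in 236 peaks with 2 copies (56.8 to 74.0), 100.9 in 28 peaks with 3 copies (53.9 to 156.6) and 55.5 in 15 peaks with 4 or more (44.0 to 131.1). The intervals of the last 2 groups are wide. Of the windows with 4 or more copies, that in Sv2b, shown above, had 4 in direct succession and a signal of 250.5. A window within Gm239 also had 4 copies, with a signal of 330.5. Windows with 3 copies lay 15.3 kb upstream of Gtsf1l and 245 kb upstream of Cwc22, with signals of 273 and 228.3. In the 236 peaks with 2 copies the distance between the copies took 72 values, and the most common distance was found in 9 pairs.

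**Figure D2:**
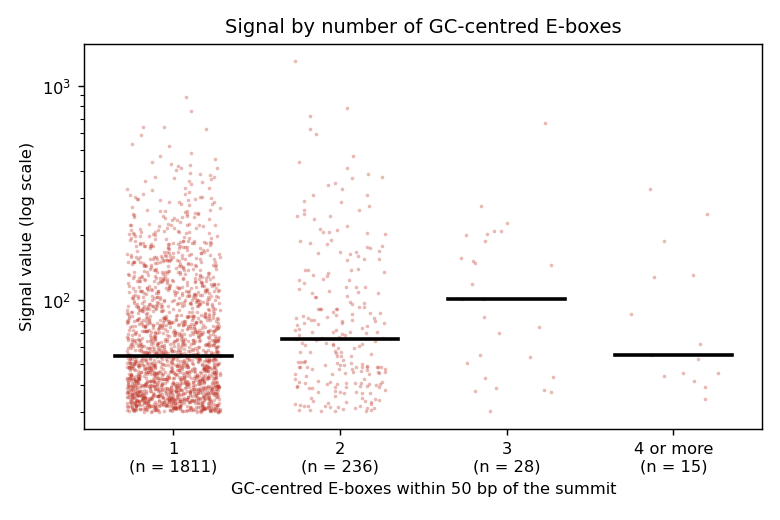
Signal of each GC-only peak (y axis, units of the authors' caller, log scale) by the number of CAGCTG copies within 50 bp of its summit (x axis). Points are peaks and bars are medians, which are 54.6, 65.6, 100.9 and 55.5 for 1, 2, 3 and 4 or more copies.

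Inside the window the distances are bounded by the rule and are given as a description. The median distance of a site's centre from the summit was 21.5 bp in GC-only peaks, and that of CACCTG sites in CC-only peaks was also 21.5 bp. Within 10 bp of the summit lay 24.3% of GC-only sites and 23.3% of CC-only sites, and within 25 bp lay 57.0% of each. Outside the window that the rule used, 51 to 100 bp from the summit, a further CAGCTG was found in 11.3% of GC-only peaks, against 10.5% of CC-only peaks, 12.7% of peaks with both kinds and 9.46% of peaks with neither. CACCTG was found there in 13.3% of GC-only peaks, against 13.8%, 14.7% and 12.5% of those same 3 classes. None of these 6 differences was called. That to peaks with neither was the largest for CAGCTG, 1.84 points (0.40 to 3.39). Between 575 and 600 bp from the summit, CAGCTG was found in 2.78% of GC-only peaks and CACCTG in 4.50%, so the absence of CACCTG from these peaks holds for the summit window and not for the surrounding sequence.

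**Figure D3:**
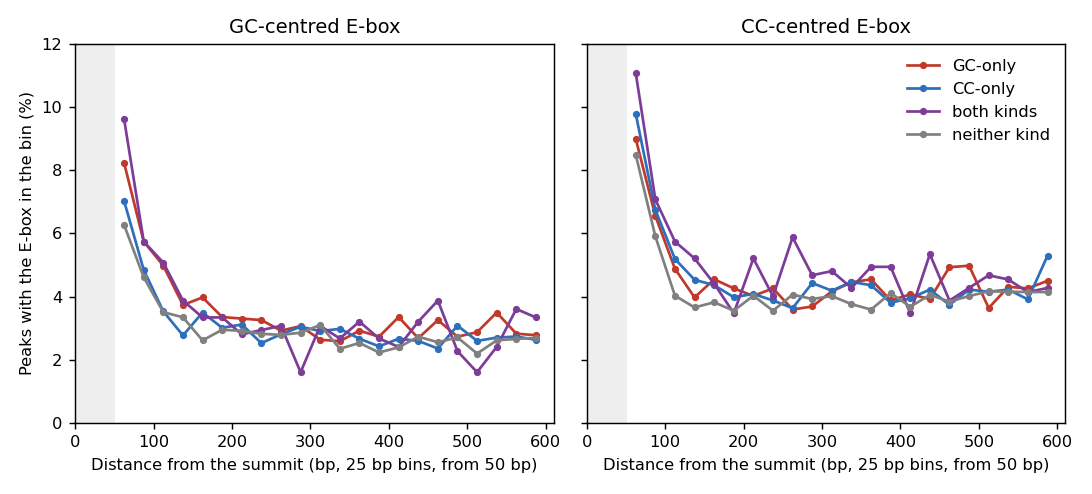
Share of distal peaks (y axis, percent) with CAGCTG (left) or CACCTG (right) in 25 bp bins by distance from the summit (x axis, bp), 1 line for each E-box class, with the 50 bp that defined the classes shaded and left out. In GC-only peaks CAGCTG falls to 2.78% and CACCTG to 4.50% at 575 to 600 bp, and the 4 classes run close together beyond 100 bp.

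Other factors' motifs were searched as fixed letters on both strands, in the summit windows of GC-only peaks and in flank windows of the same peaks and width. Of 38 motifs, 14 were more common at the summits (36.8%) and 1 was less common (2.63%) by the two-sided exact McNemar test with Benjamini-Hochberg adjustment over the 38. AP-1 sites (TGAGTCA), bound by FOS and JUN dimers, were held by 8.33% of summit windows, against 2.11% of flank windows (adjusted p = 2.2e-18, exact). RUNX sites (TGTGGTT) were held by 6.84% of summit windows, against 2.18% of flank windows (adjusted p = 2.9e-13, exact). EBF sites (CCCNNGGGA), read by the B-lineage factor EBF1, were held by 5.50% of summit windows, against 1.53% of flank windows (adjusted p = 5.15e-11, exact). The E-box with a TC centre, CATCTG, which the rule did not use, was held by 17.2% of summit windows, against 7.66% of flank windows (adjusted p = 8.13e-21, exact).

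The other 10 motifs that were more common at the summits are given here with their letters. The octamer ATGCAAAT, read by OCT factors, was held by 3.21% of summit windows, against 0.62% of flank windows. The NF-kappaB site GGGANTTCC was held by 2.15% of summit windows, against 0.41% of flank windows. PU.1 sites (GAGGAAGT) were held by 3.25% of summit windows, against 0.93% of flank windows. Other ETS-family letters were CCGGAAGT with 0.62% of summit windows, against 0.12% of flank windows, and ACAGGAAG with 2.92% of summit windows, against 1.15% of flank windows. The composite ETS and IRF element GGAANNGAA was held by 5.89% of summit windows, against 3.09% of flank windows. SP and KLF sites (GGGCGGG) were held by 2.63% of summit windows, against 1.36% of flank windows. CACGTG, the E-box of MYC and USF factors, was held by 2.68% of summit windows, against 1.22% of flank windows. The CRE (TGACGTCA) was held by 14 summit windows, or 0.67%, against 0.072% of flank windows. Letters of the CTCF site (AGGGGGCG) were held by 17 summit windows, or 0.81%, against 0.096% of flank windows. The FOXO site TGTTTAC was the motif that was less common, with 0.48% of summit windows, against 1.24% of flank windows (adjusted p = 0.027, exact), and it was present in only 10 summit windows. Its call was lost with flanks 500 bp away (adjusted p = 0.198, exact), over 1 kb from any transcript start (adjusted p = 0.119, exact) and in the upper 50% of signal (adjusted p = 0.095, exact), and its direction turned in the 25 bp window (0.072 points, adjusted p = 1, exact). In the 25 bp window AP-1, RUNX, EBF and CATCTG were the 4 motifs called higher, and CACGTG turned to -0.14 points. In the upper 50% of signal these 4, the octamer, NF-kappaB and GGAANNGAA were the 7 called higher. CCGGAAGT also lost its call with flanks 500 bp away, at either stricter distance limit, with no other summit within 1 kb and without peaks of 4 or more CAGCTG, and the CRE lost its call over 5 kb from a 5′ end. The ETS letters overlap each other and GGAANNGAA, so these counts are not independent. The palindromes CGATCG and ACGCGT, searched as controls, were not called, but only 2 and 5 summit windows held them. With so few windows the test could not have called either, so they do not serve as a check on the other motifs.

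**Figure D4:**
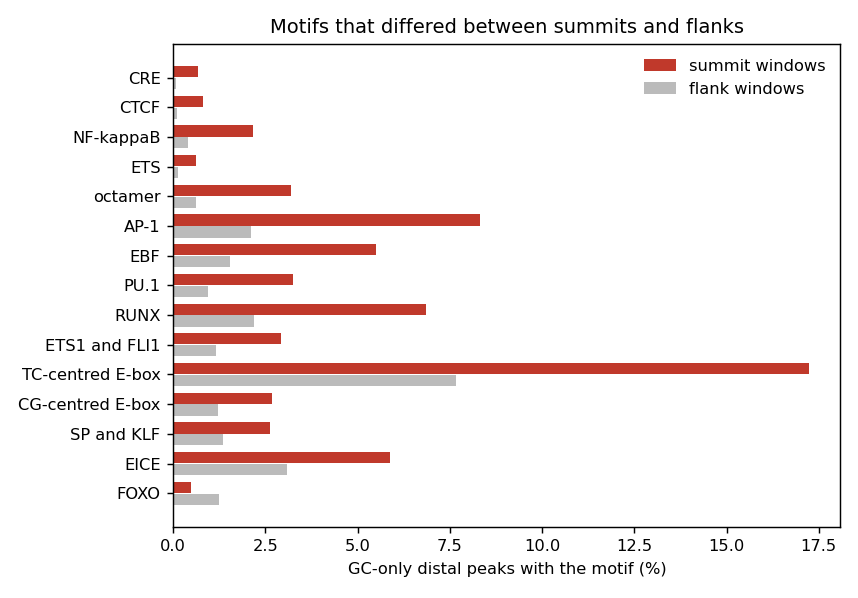
Share of GC-only peaks (x axis, percent) with each called motif (y axis) in the summit window (red) and in the flank windows (grey). The E-box with a TC centre reaches 17.2% of summit windows and 7.66% of flank windows, and FOXO is the motif lower at summits.

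Between GC-only peaks and the other distal classes no motif was called. With the class-defining E-boxes masked, 0 of 38 motifs was called against CC-only peaks, against peaks with both kinds or against peaks with neither (0% in each comparison). Before the intervals were widened for all motifs and classes, 1 lay above 0 and 1 below 0 against CC-only peaks, 4 above 0 against peaks with both kinds and 8 below 0 against peaks with neither. Masking takes an E-box of each kind out of windows with both kinds and nothing out of windows with neither. The counts of intervals above and below 0 were not corrected for this. Masking also removes AP-1 and RUNX letters that overlap CAGCTG, so their shares here are lower than in unmasked windows. CATCTG was held by 17.2% of GC-only peaks, against 14.4% of CC-only peaks (2.80 points, 0.75 to 4.88) and 15.9% of peaks with neither. AP-1 letters were held by 7.80% of GC-only peaks, against 10.3% of peaks with neither (-2.48 points, -3.74 to -1.10) and 8.54% of CC-only peaks. RUNX letters were held by 6.17% of GC-only peaks, against 6.26% of CC-only peaks and 6.72% of peaks with neither. EBF letters were held by 5.50% of GC-only peaks, against 5.85% of CC-only peaks and 5.15% of peaks with neither. Across the 38 motifs the 95% intervals against CC-only peaks lay between -2.43 and 4.88 points.

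A scan of all 2078 6-mers left after folding complements and setting aside the class-defining letters was made in the same masked windows. Against CC-only peaks and against peaks with both kinds, 0 was called (0%). Before widening, 60 intervals lay above 0 and 65 below 0 against CC-only peaks, 212 above and 21 below against peaks with both kinds, and 3 above and 533 below against peaks with neither. Against peaks with neither kind, 8 were called (0.385%), all less common in GC-only peaks. AAAGCA was held by 6.89% of GC-only peaks, against 10.6% of peaks with neither (-3.71 points). AAAAGA was held by 4.50% of GC-only peaks, against 7.48% of peaks with neither. CAAAAG was held by 4.31% of GC-only peaks, against 7.11% of peaks with neither. AATTTC was held by 2.15% of GC-only peaks, against 4.43% of peaks with neither. The other 4 hold CG dinucleotides. CGCGCC was held by 0.62% of GC-only peaks, against 2.69% of peaks with neither, and CGGCGC by 0.57%, against 2.44%. CGCCGC was held by 1.10% of GC-only peaks, against 2.84% of peaks with neither, and GCGCGC by 0.29%, against 1.81%. Masking takes letters out of every GC-only window and of no window of the class with neither kind. Windows with both kinds lose an E-box of each kind. The counts of intervals above and below 0 were not corrected for these differences in masked letters. In unmasked windows 6 of the 8 were also called lower, and AAAGCA and CGCCGC were not (-2.52 and -1.69 points). Unmasked, CAGCTG still takes up part of every GC-only window and of no window with neither kind. That run therefore cannot remove the difference in free sequence that the class rule sets. The median GC content of the windows was 53.5% in GC-only peaks, against 52.5% in CC-only peaks, 55.4% in peaks with both kinds and 51.5% in peaks with neither.

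Inside GC-only peaks, none of the 37 other motifs present was called for the share of strong peaks (0%). Spacing to CAGCTG was also counted for some of these motifs, each at its most frequent spacing, and none was called against flank sites. CATCTG at that spacing was found at 0.49% of summit sites, against 0% of flank sites (0.49 points, 0.17 to 0.86, not called after widening). For RUNX and AP-1 sites the most frequent arrangement was an overlap with CAGCTG. Of 172 pairs of CAGCTG and RUNX letters, 17 shared the 2 letters TG, so that CAGCTG ran straight into the RUNX site. The next spacing was found in 6 pairs. In flank windows of all distal peaks 6 of 40 pairs overlapped in this way, a larger share of pairs than at the summits. The Atp13a2 window above, with a signal of 412, shows this arrangement. Per CAGCTG site it was found at 0.70% of summit sites, against 0.38% of flank sites (0.31 points, -0.21 to 0.78), which was not called. AP-1 letters overlapped CAGCTG in the same way in 11 of 200 pairs, against 2 of 32 pairs in flank windows. Per site this was 0.45% of summit sites, against 0.13% of flank sites, which was not called either.

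By location, no difference from the other distal peaks was called. An intron held 50.9% of them, against 50.7% of CC-only peaks, 51.5% of peaks with both kinds and 49.2% of peaks with neither. More than 10 kb from the nearest 5′ end lay 75.3% of GC-only peaks, against 76.4%, 77.7% and 72.5% of those classes. Another TCF12 peak lay within 12 kb of 64.8% of GC-only peaks, against 65.3%, 60.1% and 67.4%. Of these 9 comparisons, 0 was called (0%). The median distance to the nearest 5′ end was 27.6 kb, with a middle 50% of 10.1 to 68.3 kb. By chromosome, GC-only peaks made up between 12.8% of distal peaks (chromosome 12) and 18.4% (chromosome 19). Just inside the 1 kb limit were peaks 1003 bp from Rac2, with a signal of 163, 1004 bp from Dusp10, with 115, and 1007 bp from Fam116b, with 34.7. Just outside were peaks 999 bp from Atp8a1, with 31.0, 994 bp from Bhlhe40, with 45.4, and 994 bp from 2310007L24Rik, with 32.1.

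Around genes, GC-only peaks were counted over the span of each gene and the 10 kb before its 5′ end, and 1125 of 22208 protein-coding genes (5.07%) held at least 1. Over all genes, 1414 held a CC-only peak, 454 a peak with both kinds and 3293 a peak with neither. Any distal TCF12 peak was held by 4461 of the 22208 genes (20.1%), the share to set beside the number with any distal peak in each list below. A further measure was the share of genes with any distal TCF12 peak that held a GC-only peak, 25.2% over all genes. Longer genes hold more peaks, gene span was not matched, and the lists below are described without a test. In the list of E proteins and partners, 5 of 23 genes held a GC-only peak, or 31.25% of the 16 with any distal peak. A CC-only peak was held by 7 of the 23 and a peak with neither kind by 12. Genes with a GC-only peak included Runx3, a RUNX factor, with 54.6, Runx1t1, a corepressor, with 34.5, and Tcf4, another E protein, with 34.5. Tcf12 and Tcf3, the genes of 2 E proteins, held none.

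Among B-cell identity genes, 6 of 25 held a GC-only peak, or 31.6% of the 19 with any distal peak. Of the 25, 11 held a CC-only peak and 17 a peak with neither kind. The peak 1.07 kb upstream of Spib, an ETS factor of B cells, had a signal of 236 and lay in an intron of Pold1 with an EBF motif in its window. In Pax5, the regulator of B-cell commitment, a peak 5.29 kb inside the gene had 207, and its window above holds ACAGCTGC 7.5 bp from the summit. Ikzf3, which encodes Aiolos, had a peak of 192 with GCAGCTGC. In B-cell receptor signalling 6 of 23 genes held a GC-only peak, or 28.6% of the 21 with any distal peak. Of the 23, 12 held a CC-only peak and 20 a peak with neither kind. GC-only signals were 128 in Pik3cd, a lymphocyte PI3-kinase subunit, and 93.9 and 91.9 at 2 sites of Prkcb, a kinase downstream of the receptor.

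For activated B cells and the germinal centre, 9 of 30 genes held a GC-only peak, or 45% of the 20 with any distal peak. CC-only peaks were held by 8 of the 30 and peaks with neither kind by 18. Mef2b, a germinal centre factor, had a GC-only peak of 187, and Bcl2l1, a survival gene, had 138 with 2 copies. Plasma cell genes held a GC-only peak in 5 of 18, or 35.7% of the 14 with any distal peak. A CC-only peak was held by 6 of the 18 and a peak with neither kind by 9. Genes with a GC-only peak included Sec11c, a signal peptidase subunit, with 292, and Cd38 with 123. Genes of early B-cell development held a GC-only peak in 6 of 16, which is 75% of the 8 with any distal peak. Of the 16, 4 held a CC-only peak and 5 a peak with neither kind. Those with a GC-only peak included Lef1, a Wnt-pathway factor, with 269, Bcl11a with 225.0 and Erg with 129. B-1 cell genes held a GC-only peak in 4 of 14, or 40% of the 10 with any distal peak. Of the 14, 3 held a CC-only peak and 9 a peak with neither kind. GC-only signals were 199.5 in Ctla4 and 138 in Il5ra, the interleukin 5 receptor chain, which also had a peak of 116 upstream.

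Migration and adhesion genes had the highest count, 11 of 20, or 73.3% of the 15 with any distal peak. Of the 20, 9 held a CC-only peak and 14 a peak with neither kind. GC-only signals were 163 in Rac2, a blood-cell GTPase, and 157 in Cyth1, an integrin regulator. A peak 5.93 kb upstream of Itgal, the LFA-1 alpha chain, had 138. Antigen presentation genes held a GC-only peak in 2 of 13, or 50% of the 4 with any distal peak. The signals were 148 upstream of Tap1 and 55.2 upstream of H2-Eb1. Of the 13, 0 held a CC-only peak and 4 a peak with neither kind. Toll-like receptor and interferon genes held a GC-only peak in 3 of 18, or 30% of the 10 with any distal peak. Their signals were 334 upstream of Socs3, a cytokine feedback inhibitor, 95.4 in Irak2 and 32.5 upstream of Irf5. Of the 18, 3 held a CC-only peak and 8 a peak with neither kind. T-lineage genes held a GC-only peak in 3 of 16, or 50% of the 6 with any distal peak. The signals were 150.1 in Tcf7, 92.2 upstream of Cd2 and 44.1 in Notch1. Of the 16, 2 held a CC-only peak and 5 a peak with neither kind. The other lists had few: 1 of 15 myeloid and erythroid genes (Cebpb, 38.3), 1 of 22 ribosomal protein genes (Rps18, 57.9) and 0 of 16 muscle and nerve genes that are classical bHLH targets. Any distal peak was held by 3, 1 and 1 genes of these lists, too few for a share. The median span was 3.03 kb in the muscle and nerve list and 3.91 kb in the ribosomal list, against 22.9 kb in the migration list, 17.5 kb in the early B-cell list and 15.4 kb over all genes. It was longest in the B-cell receptor signalling list, 100.2 kb.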

How the data were processed

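Peaks were taken from the list on mm9 that the authors made from both replicates of TCF12 ChIP-seq in CH12.LX, per the file descriptions. Which aligner and which peak caller were used is not given in the sources used here. The signal value of each peak is the deposited value of the authors' caller, with no stated scaling, and read depth is unknown. The lists on mm10, which separate the replicates, and the control reads were not analysed here, since no mm10 sequence was used and no coordinate was converted between builds. Of 23575 peaks, 3 on other chromosomes were left out.

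Sequence came from NCBIM37 (mm9) and genes from GENCODE vM1, with coordinates counted from 1. The summit was the start plus the deposited offset. A motif on either strand was counted if no letter of it was more than 50 bp from the summit. Flanks were the same width, centred 300 bp to either side. Summit and flank were compared with the two-sided exact McNemar test against 1 flank per peak, alternating between left and right. Its p-values carry the Benjamini-Hochberg adjustment, and flank shares are means of both flanks. Differences between 2 shares carry a 95% Newcombe interval and were called when the interval, widened by the Bonferroni method, left out 0. Medians carry exact order-statistic intervals. Each of these treats peaks as independent, compares peaks and not replicates, and covers counting error only. The calculations were tested on simulated data and run in Python 3.11.15 with numpy 2.4.6, pandas 2.3.3, scipy 1.17.1 and pysam 0.24.0. Figures were drawn with matplotlib 3.10.9.

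The members, the motifs and the 14 gene lists (269 of 275 genes measured) were chosen with earlier results of these data known. Named regions are the 12 strongest, up to 3 per gene list, up to 5 with 3 or more CAGCTG by signal, and the 3 nearest the distance limit on each side. The Atp13a2 region and other overlaps of CAGCTG with RUNX letters were chosen after their values were seen. Some named regions are not reported here. Alternatives were other windows, distances, flanks, signal and GC limits.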

Additional observations from a re-analysis of the deposited data

How the results depend on the processing

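No paired analysis was possible because there is 1 group and the mm9 list joins its replicates, and for the same reason no replicate was left out. The difference in strong peaks from each class kept its direction and its side of the threshold under each alternative run. Within 25 bp of the summit there were 1385 GC-only peaks (9.65% of distal peaks, median signal 57.5), with 4 motifs higher at summits, 1 6-mer called against peaks with neither kind, 1 kind of neighbouring bases higher, 0 groups called for signal and 1 difference in location called. There CACGTG turned to -0.14 points and FOXO to 0.072 points. Within 100 bp the share was 17.9%, with 2 motifs lower, 19 6-mers, 4 signal groups and 2 location differences. With peaks over 5 kb from a 5′ end, 2 motifs were lower and 3 6-mers called. Over 1 kb from any transcript start, 1 motif and 3 6-mers were called against peaks with neither. In the upper 50% of signal 1066 peaks remained in the class (16.2%, median 95.4), with 7 motifs higher and 0 lower, 3 6-mers, 1 kind of neighbouring bases higher and 36 listed genes. With no other summit within 1 kb, 2 motifs were lower, 1 motif and 3 6-mers were called against peaks with neither, and 1 signal group was called. In the middle 50% of GC content 2 6-mers were called. Without masking, 54, 27 and 56 6-mers were called against CC-only peaks, both kinds and neither, as the class letters then enter the scan. With the upper 50% taken as strong, 1 signal group was called. Against CAGCTG at promoter summits in place of flanks, 4 kinds of neighbouring bases were higher, ACAGCTGA turned to 3.93 points and GCAGCTGC to -8.57 points, and the cause was not tested. Without members of 4 or more CAGCTG, an alternative chosen after seeing the data, 2 motifs were lower. Of the other values, 36 single motifs, kinds of bases or signal groups lost the call, 13 of them in the 25 bp window. SP and KLF fell there to 0 points, and the others kept their direction.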

Other observations

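The 17 GC-only peaks in which CAGCTG runs into the RUNX letters had signals between 31.7 (Arhgap22) and 412 (Atp13a2). They included a peak 51.9 kb downstream of the 5′ end of Cxcr4, which encodes a chemokine receptor, with a signal of 61.3, and a peak 10.3 kb upstream of Itga5, an integrin chain, with 57.6. These values are given as a description, with no test.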
